A study of Mus musculus with 10 samples.

Results

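The proteasome is the protease that degrades most ubiquitin-tagged proteins. Its 20S core is a barrel of alpha rings, which form the gate, around beta rings, of which the subunits made from Psmb5, Psmb6 and Psmb7 cut peptide bonds. A 19S particle with a base of ATPases and a lid binds, unfolds and feeds in substrates, other caps open the core without ubiquitin, and dedicated chaperones assemble both parts. Interferon replaces the catalytic subunits with those of Psmb8, Psmb9 and Psmb10, and in cells without that signal the constitutive form predominates. The transcription factor NRF1, made from Nfe2l1, is known to raise the transcription of these genes when degradation is impaired.

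The genes described here are those whose symbol in a table of intronic RPKM begins with Psm, then a letter from a to g and a number. They are 48 genes on 50 lines of 24901, since Psmd14 and Psmb9 each stood on 2 lines and the first was used. Among them, 47 encode subunits, caps or assembly factors. Psmc3ip, a cofactor of meiotic recombination, matched by its name only, but it is counted among the proteasome genes in all numbers below. In the 6 single libraries 46 of the 48 reached the mean of 0.1 RPKM needed for a test, and Psmb8 and Psmb9 did not.

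Newly made RNA of mouse embryonic stem cells was measured by Bru-seq, in which cells take up bromouridine, here 2 mM for 10 min, and the labelled RNA is captured and sequenced. RPKM here divide a gene's intronic reads by its intron length and by the depth of the library. The 10 samples form 5 groups of 2, all grown with LIF, 1 µM PD0325901 and 3 µM CHIR99021. Elongin A, encoded by Tceb3, belongs to a complex that helps RNA polymerase II elongate. EloA_WT has the wild-type protein, EloA_K754M has lysine K754 edited to methionine and EloA_K754R has it edited to arginine. CJ7_WT is a wild-type line, and Eed_null lacks the Eed subunit that Polycomb repressive complex 2 needs to methylate histone H3. The line field reads CCE28 for EloA_WT and Eed_null and CJ7 for the other groups, so the substitution and the parental line cannot be told apart, and the genotype field of Eed_null reads EloA null. Whether an edited line is 1 clone, and whether replicates are separate cultures, is not given, so p-values measure the spread between these libraries, which may be technical.

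Depth, recovered from the steps of the RPKM values as intronic reads, was 14732812 to 21725661 reads in the 6 libraries, 47972462 in the pooled CJ7_WT column and 40092947 in the pooled Eed_null column. Proteasome genes took 0.318 to 0.444% of these reads. Of 10 embryonic stem cell markers, 9 were in the table, and limma called none of them changed in either mutant. Over all genes it called 0.218% in EloA_K754M and 3.48% in EloA_K754R, so no call among 9 cannot show that the cells are alike. All 10 fibroblast markers, which feeder cells would carry, had a positive log2 change in both mutants. Over all genes, 57.4% were negative in EloA_K754M and 64.5% in EloA_K754R. Limma called 1 of the markers higher in EloA_K754R, beside 0.686% of all genes, and 0 in EloA_K754M, beside 0.0132%. The summed level of the fibroblast markers was 5.76 to 6.22 RPKM in EloA_WT and 8.73 to 10.8 RPKM in the mutants. In the pooled columns, not part of the test, this sum was 10.61 RPKM in CJ7_WT and 12.86 RPKM in Eed_null. EloA_WT thus had the lowest sum, and the mutants did not lie above the other wild-type line as a group. No marker was at 0 in any column. The part of these markers in the results below was not tested. Eed read 10.0 RPKM in CJ7_WT and 7.97 RPKM in Eed_null, so intronic reads do not check that label. A bulk level cannot tell fewer cells making an RNA from less RNA per cell.

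Proteasome genes spanned a wide range of nascent levels. The highest was Psmb6, encoding the caspase-like subunit, at 45.1 ± 7.99 RPKM (SD, n = 2) in EloA_WT, and next came the non-catalytic beta gene Psmb4 at 19.6 ± 5.48 RPKM. Both have very short introns, 623 bases in all for Psmb6 and 1491 for Psmb4, so that these levels rest on 474 and 515 reads for Psmb6 in the EloA_WT libraries. Psme4, encoding a nuclear cap, followed at 10.7 ± 1.76 RPKM over 100303 bases of intron. The ATPase gene Psmc5, the alpha ring gene Psma3 and the lid gene Psmd6 lay between 7.30 and 8.88 RPKM. Near the bottom stood the chaperone gene Psmg4 at 0.544 ± 0.111 RPKM and the genes of the interferon-inducible cap, Psme1 at 0.438 ± 0.113 RPKM and Psme2 at 0.311 ± 0.0579 RPKM.

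In each of the 3 catalytic pairs the constitutive gene had the higher level in EloA_WT. Psmb8, the inducible replacement of Psmb5, had 0 reads in 4 of 6 libraries and 1 read in each of the other two, while Psmb5 held 1.07 and 1.19 RPKM in EloA_WT. Psmb9, the replacement of Psmb6, had 0 to 5 reads per library. Psmb10, the replacement of Psmb7, was measurable, at 2.03 and 1.18 RPKM in EloA_WT, where Psmb7, the trypsin-like subunit gene, held 5.43 and 6.47 RPKM. Psma8, the testis form of an alpha subunit, read 1.67 to 2.06 RPKM in the 6 libraries. Markers of interferon exposure and immune cells summed to 1.67 to 3.02 RPKM over 10 genes in the 8 columns, and 3 of the 10 reached the tested level. Some intronic reads may belong to neighbours, since 12 genes of the set overlap another protein-coding gene in GENCODE (Psmb7 overlaps Nek6, Psmb9 overlaps Tap1, Psmc3ip overlaps Mlx) and strand handling is not given in the sources used here.

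**Figure D1:**
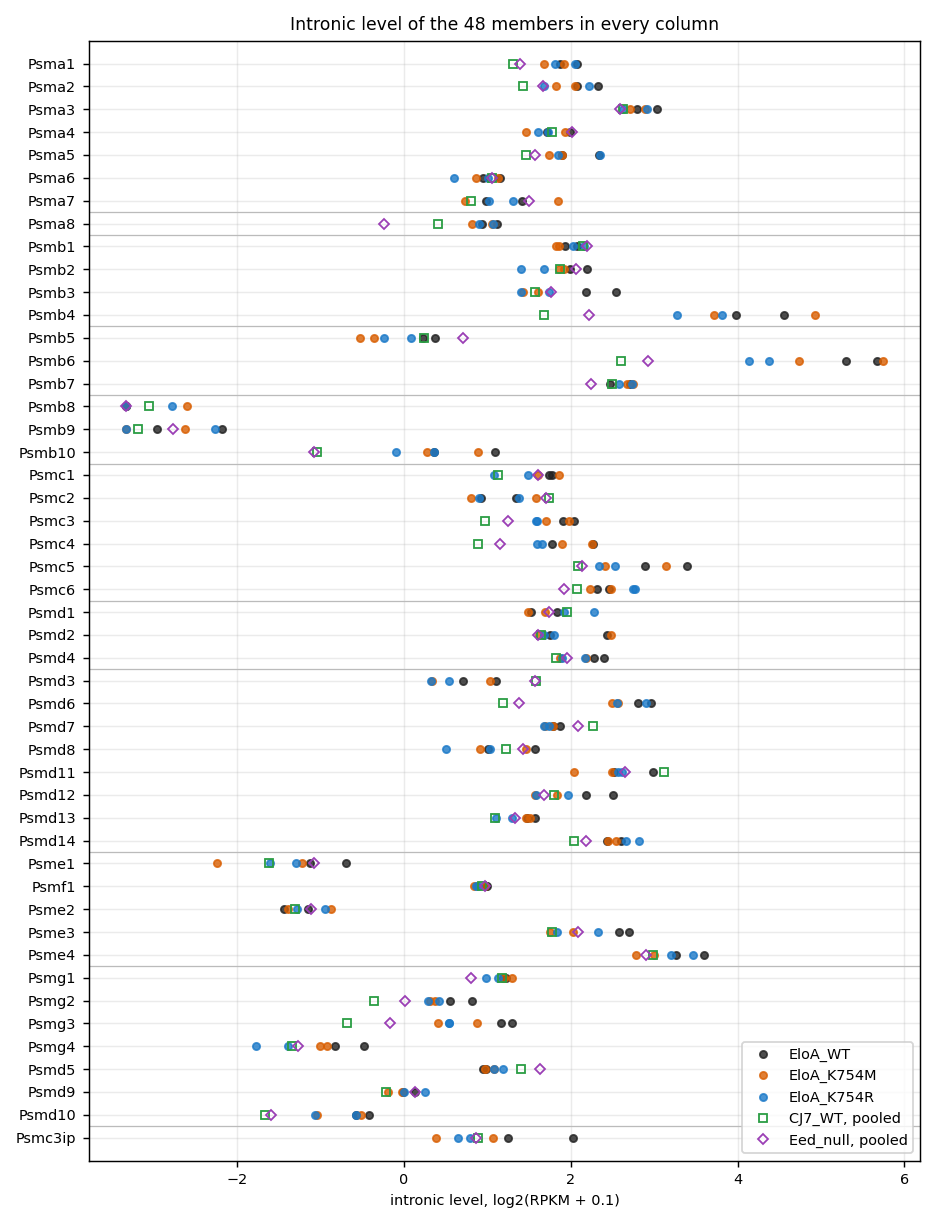
Intronic level of the 48 genes, one line per gene and ordered by role, as log2 of RPKM plus 0.1; filled points are the 6 Elongin A libraries and open symbols the pooled CJ7_WT and Eed_null columns. Psmb6 and Psmb4 lie to the right, with their Elongin A libraries above both pooled columns, and Psmb8 and Psmb9 lie at the left edge.

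Against EloA_WT, no proteasome gene passed limma's adjusted p of 0.05 in EloA_K754M (0 of 46), where 0.218% of all 15161 tested genes did, 0.204% of all genes lower and 0.0132% higher. At an unadjusted p under 0.05 there were 7, beside 15.4% of all genes, with 7 lower, beside 10.7%, and 0 higher, beside 4.65%. The log2 change was negative for 38 of 46, beside 57.4% of all genes, with a median of −0.155 beside −0.0552. For 20 of the 46 both EloA_K754M libraries lay below both EloA_WT libraries, beside 27.2% of all genes, and for 0 of 46 above, beside 17% of all genes. With every library set to the same median, a shift that all genes share, the median over the proteasome genes was −0.0284 and that over all genes 0.0716.

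The core genes that differed most in EloA_K754M were Psmb3 and Psmb5. Psmb3, a structural beta subunit, read 4.44 and 5.72 RPKM in EloA_WT and 2.60 and 2.95 RPKM in EloA_K754M. The groups did not overlap, and the log2 change was −0.84 (SE 0.185, limma adjusted p = 0.131). Psmb5, the chymotrypsin-like subunit and the target of proteasome inhibitor drugs, read 1.07 and 1.19 RPKM against 0.598 and 0.685 RPKM. These values did not overlap either, and the change was −0.73 (SE 0.171, adjusted p = 0.144 by limma) on 29 and 34 reads in the mutant. Psmb7 lay slightly the other way at 0.12 (adjusted p = 0.738), and Psmb6 at −0.25 (adjusted p = 0.789), whose mutant libraries, 26.5 and 53.3 RPKM, lay on either side of the wild type. Psmb10 also overlapped, with a change of −0.14 (adjusted p = 0.881).

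Among the caps, Psme3, encoding the nuclear PA28 gamma activator, read 5.87 and 6.42 RPKM in EloA_WT and 3.26 and 3.97 RPKM in EloA_K754M. Its change was −0.75 (SE 0.199, limma adjusted p = 0.175), and no library overlapped. Psmc3ip, the recombination cofactor that is in the set by its name only, read 3.97 and 2.28 RPKM against 2.00 and 1.21 RPKM (−0.91, adjusted p = 0.274). Without it, the median change over the other 45 genes in EloA_K754M was −0.153. Among genes of at least 0.5 RPKM in the higher group, the 4 largest positive changes were small. They were Psmb7, Psma7, Psmc2 and the base chaperone gene Psmd5. Of these, Psma7 had 0.09 (adjusted p = 0.939), Psmc2 0.06 (adjusted p = 0.955) and Psmd5 0.06 (adjusted p = 0.856). Below that level, Psme2 had 0.16 (adjusted p = 0.812). Besides Psmb3, Psmb5, Psme3 and Psmc3ip, those under an unadjusted p of 0.05 were Psmd12, Psmg3 and Psme4. Psmd12, a lid gene, read 4.46 and 5.59 RPKM in EloA_WT and 2.87 and 3.46 RPKM in EloA_K754M, and Psme4 read 9.49 and 11.98 RPKM against 6.81 and 7.89 RPKM, neither with overlap. For these 7 genes the pooled CJ7_WT column, not part of the test, read 2.88 RPKM for Psmb3, 1.08 for Psmb5 and 3.33 for Psme3. It read 1.75 RPKM for Psmc3ip, 3.40 for Psmd12, 0.527 for Psmg3 and 7.81 for Psme4. By role, the median change was −0.0260 over 6 ATPase genes, −0.153 over 7 alpha ring genes and −0.164 over 8 lid genes. All 8 lid genes were negative, beside 57.4% of all genes. The median was −0.286 over 7 chaperone genes and −0.535 over 5 cap and inhibitor genes, beside −0.0552 for all genes. The lid genes Psmd3, Psmd11 and Psmd12 and the cap genes Psme3 and Psme4 lie on chromosome 11. All tested genes there had a median of −0.458. The −0.535 is the value of Psme4, and Psme1 rests on 2 and 6 reads in EloA_K754M. The sign of the lid changes of Psmd14 (−0.0199), Psmd13 (−0.0310), Psmd7 (−0.0916) and Psmd8 (−0.101) depends on library scaling. Equal library medians move every gene alike, for example Psmb7 from 0.1187 to 0.2455, and turn these lid genes positive.

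EloA_K754R had 0 of 46 proteasome genes past limma's adjusted p of 0.05 as well, where 3.48% of all genes passed, 2.79% of all genes lower and 0.686% higher. At an unadjusted p under 0.05 there were 12, beside 25.1% of all genes, with 11 lower, beside 18.9%, and 1 higher, beside 6.19%. Negative changes numbered 37 of 46, beside 64.5% of all genes, with a median of −0.280 beside −0.138. Both mutant libraries lay below both EloA_WT libraries for 24, beside 38.8% of all genes, and above them for 4, beside 18%. At equal library medians the proteasome genes had a median of −0.0873 and all genes 0.0548. Both mutants are set against the same 2 EloA_WT libraries, so the 33 genes negative in both are not 2 independent observations.

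Psmb6 had the most negative value in EloA_K754R. It read 39.4 and 50.7 RPKM in EloA_WT and 17.4 and 20.7 RPKM in EloA_K754R, on 176 and 280 reads, with no overlap. The log2 change was −1.23 (SE 0.354, limma adjusted p = 0.107). Psmg4, part of a chaperone pair that starts the alpha ring, read 0.622 and 0.465 RPKM against 0.194 and 0.283 RPKM (−0.93, SE 0.223, adjusted p = 0.0790). Psmb3 again lay lower without overlap, at 2.54 and 3.25 RPKM (−0.79, SE 0.185, adjusted p = 0.0756). Psmc3ip stood at −0.91 (adjusted p = 0.158). Psmb5, at 0.750 and 0.966 RPKM, was also below both wild-type libraries (−0.37, adjusted p = 0.244). Psmb10 had −0.59 (adjusted p = 0.326) and Psmb7 0.07 (adjusted p = 0.804).

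The others lower at an unadjusted p under 0.05 were Psmg3, Psmb2, Psmd12, Psme3, Psmc3, Psmc1 and Psmd13. Psmg3, the partner of Psmg4 in its chaperone pair, read 2.36 and 2.14 RPKM in EloA_WT, 1.36 and 1.35 RPKM in EloA_K754R and 1.74 and 1.24 RPKM in EloA_K754M, so that all 4 mutant libraries lay below the wild type. Psmb2, a structural beta subunit, read 3.88 and 4.48 RPKM in EloA_WT and 2.55 and 3.11 RPKM in EloA_K754R, while EloA_K754M, at 3.68 and 3.54 RPKM, lay between them. Psmc1, at 3.23 and 3.32 RPKM in EloA_WT and 2.01 and 2.71 RPKM in EloA_K754R, held 2.95 and 3.53 RPKM in EloA_K754M and so overlapped the wild type there.

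A few genes of the 19S particle and the base chaperone gene Psmd5 lay higher in EloA_K754R. Psmd1, the large scaffold of the base, read 2.78 and 3.46 RPKM in EloA_WT and 3.68 and 4.75 RPKM in the mutant (0.42, SE 0.181, adjusted p = 0.222). Psmc6, an ATPase, read 5.40 and 4.88 RPKM against 6.75 and 6.59 RPKM (0.37, SE 0.135, adjusted p = 0.165). Psmd14, the deubiquitinase of the lid, read 5.30 and 5.98 RPKM against 6.23 and 6.97 RPKM (0.22, adjusted p = 0.336), and Psmd5 had 0.17 (adjusted p = 0.422). In these 4 of 46 genes both mutant libraries lay above both wild-type ones, beside 18% of all genes. Of the 6 ATPase genes 4 were negative, and the median over the 6 was −0.387. The alpha ring stood close to all genes, with a median of −0.144 beside −0.138. Its changes were negative for 7 of 7, beside 64.5% of all genes. Small ones among them, such as −0.0181 for Psma5 and −0.144 for Psma3, turn positive at equal library medians. The 8 lid genes, of which Psmd3, Psmd11 and Psmd12 lie on chromosome 11, had a median of −0.244. Psma3, the highest of the ring, read 6.86 and 8.12 RPKM in EloA_WT, 6.45 and 7.35 RPKM in EloA_K754M and 6.10 and 7.45 RPKM in EloA_K754R, with the 3 groups overlapping. Psmf1, the gene of a proteasome inhibitor, hardly varied, from 1.69 to 1.90 RPKM in the 6 libraries and 1.82 and 1.86 RPKM in the pooled columns.

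**Figure D2:**
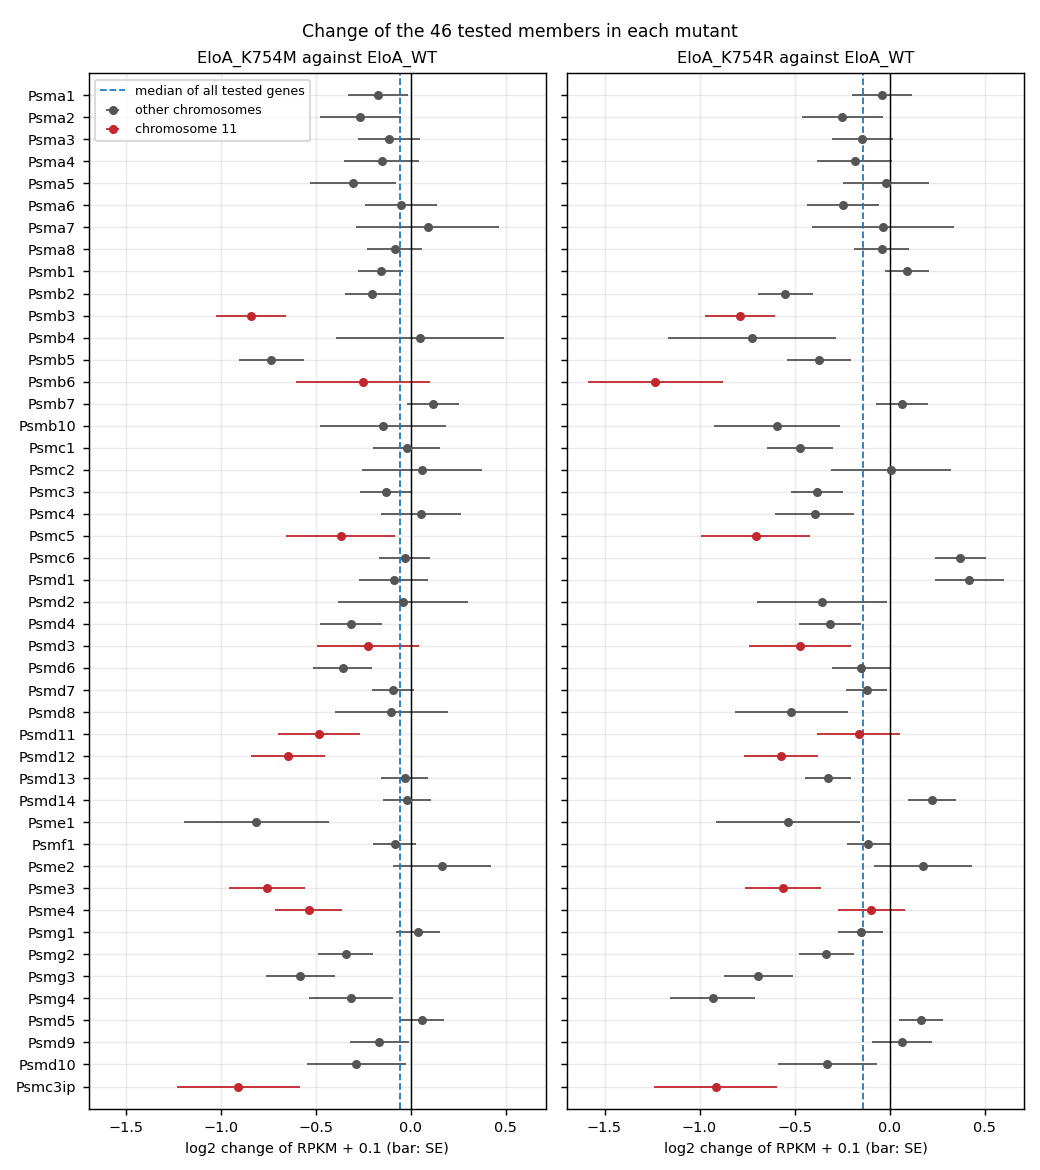
Log2 change of RPKM plus 0.1 for the 46 tested genes in EloA_K754M (left) and EloA_K754R (right) against EloA_WT, with bars of 1 standard error and the median of all tested genes as a dashed line; genes on chromosome 11 are red. The 9 red points are all below 0 in both panels, and Psmd1, Psmc6 and Psmd14 lie to the right of 0 in the EloA_K754R panel.

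The position of the genes moved with the result. On chromosome 11 lie 9 of the tested genes, Psmb3, Psmb6, Psmc3ip, Psmc5, Psmd3, Psmd11, Psmd12, Psme3 and Psme4. All 9 were negative in both mutants, with a median of −0.535 in EloA_K754M and −0.572 in EloA_K754R. All 1322 tested genes of chromosome 11 had medians of −0.458 and −0.565, with 84.9% and 91.0% negative. Proteasome genes of this chromosome therefore lay close to their neighbours. Over the 37 genes elsewhere the medians were −0.101 in EloA_K754M, beside −0.0324 for all genes elsewhere, and −0.184 in EloA_K754R, beside −0.107. What sets chromosome 11 apart was not tested.

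Intron length moved with the EloA_K754R values too. When all tested genes were split by intron length into 10 classes of equal size, the median change was −0.343 in the second class from the short end, around 1895 bases, and 0.117 in the longest, around 156689 bases. From the second class to the ninth, the proteasome genes had medians of −0.565 over 8 genes, −0.467 over 4, −0.328 over 11, −0.334 over 5, −0.0181 over 7, −0.398 over 2, −0.163 over 3 and 0.145 over 4. The single genes at the ends, Psmb6 in the shortest class and Psme4 in the longest, had −1.23 and −0.0976, so the order was not even. Psmd1 and Psmd14, with 93293 and 85757 bases of intron, are both in the ninth class, and Psmb6, with the shortest introns of the set, is in the first. With the median of its own length class taken from each gene, the median over the proteasome genes was −0.0940 in EloA_K754R and −0.0772 in EloA_K754M. In EloA_K754M the classes spanned less, from −0.134 to 0.0971.

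**Figure D3:**
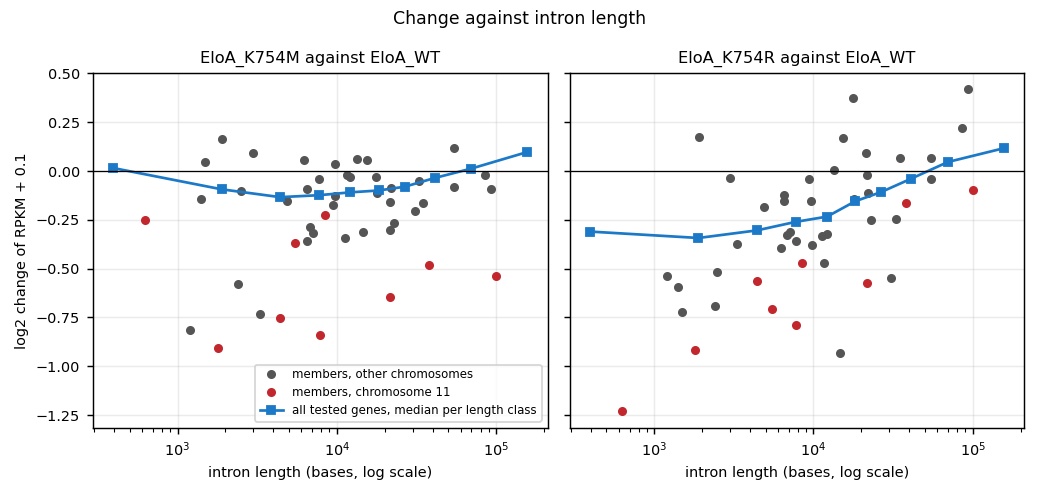
Log2 change against intron length (log scale) for the tested proteasome genes, red on chromosome 11 and grey elsewhere, with the median of all tested genes in each of 10 classes of intron length as blue squares. In EloA_K754R the blue line runs from −0.310 in the shortest class to 0.117 in the longest and most grey points scatter around it, while the red points lie below it.

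Set against each other, the 2 mutants gave 0 of 46 proteasome genes past limma's adjusted p of 0.05, where 0.29% of all genes passed, 0.178% lower in EloA_K754M and 0.112% higher. At an unadjusted p under 0.05 there were 6, beside 18.5% of all genes, with 3 lower, beside 6.87%, and 3 higher, beside 11.6%. Both EloA_K754M libraries lay above both EloA_K754R libraries for 8 genes, beside 31.9% of all genes, and below for 9, beside 18.6%. The median difference was 0.0280, beside 0.0862 for all genes, and it turned to −0.0379 at equal library medians. Psmb6 was higher in EloA_K754M by 0.98 (SE 0.354, adjusted p = 0.231), Psmb4 by 0.77 (SE 0.443, adjusted p = 0.412), Psmc1, an ATPase, by 0.45 (adjusted p = 0.257) and Psmb10 by 0.45 (adjusted p = 0.516). Psmd1 had −0.51 (adjusted p = 0.226), Psme4 −0.44 (adjusted p = 0.268), Psmc6 −0.40 (adjusted p = 0.205) and Psmb5 −0.36 (adjusted p = 0.326), while Psmb7 had 0.05 (adjusted p = 0.878), which became −0.01 at equal library medians.

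Replicates of some proteasome genes differed widely. Psmb4 read 13.0 and 30.3 RPKM in EloA_K754M, 15.7 and 23.5 RPKM in EloA_WT and 9.60 and 14.0 RPKM in EloA_K754R. Within EloA_K754M the library numbered 2 was 2.01 times the one numbered 1 for Psmb6 and 2.33 times for Psmb4. It was 1.85 times for Psmd2, with 7742 bases of intron, and 1.75 times for Psmc2, with 13485 bases. Over the 9 tested proteasome genes with under 3 kb of intron, the median of this ratio was 1.59 in EloA_K754M, beside 0.976 for all genes of that length, and 1.29 in EloA_WT, beside 0.871. In EloA_K754R the median ratio of the proteasome genes was 1.19 under 3 kb, 1.18 from 3 to 15 kb and 1.2 above. No value for all genes was taken in that group. From 3 to 15 kb the proteasome genes had 1.21 in EloA_K754M, beside 1.00 for all genes, and 1.10 in EloA_WT, beside 0.92. Above 15 kb they had 1.11 in EloA_K754M, beside 0.975, and 1.16 in EloA_WT, beside 0.94. Without the EloA_K754M library numbered 2, the median change of the proteasome genes in that mutant was −0.360, beside −0.0611 for all genes. Without the one numbered 1 it was −0.0492, beside −0.0514 for all genes.

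The Eed_null column was compared with the CJ7_WT column without a test, as each pools its replicates. Of 46 proteasome genes 1 lay above 1.5-fold, where 16% of all 14890 genes did, and 1 below it, where 5.37% did, so that 2 were past it either way, beside 21.4% of all genes. Positive log2 ratios numbered 30 of 46, beside 61.8% of all genes, and the median was 0.117 beside 0.113, turning to −0.0404 when both columns were set to the same median. The gene above was Psma7, an alpha ring subunit, at 2.74 RPKM in Eed_null and 1.65 RPKM in CJ7_WT (log2 ratio 0.70, exact 95% interval of the ratio of reads 1.40 to 1.97). The gene below was its testis counterpart Psma8, at 0.753 RPKM and 1.23 RPKM (−0.64, interval 0.576 to 0.650). These intervals are of read counts, without the 0.1 RPKM that the log2 ratios include. Counting error is all that these intervals hold, and reads counted without molecular identifiers need not come from separate molecules.

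Next to these among genes of at least 0.5 RPKM in the higher column, Psmb4 had a log2 ratio of 0.54 (interval 1.22 to 1.76). Psmg3, a chaperone gene, had 0.51 (interval 1.07 to 2.15) and Psmc1 0.48 (interval 1.31 to 1.53). On the other side stood Psmd11, a lid gene, at 6.17 RPKM in Eed_null and 8.56 RPKM in CJ7_WT (−0.47, interval 0.702 to 0.739), Psmg1, a chaperone gene, at −0.37 (interval 0.693 to 0.846) and Psmb7 at −0.25 (interval 0.818 to 0.860). By role, 4 of 4 non-catalytic beta genes, 6 of 7 chaperone genes and 4 of 8 lid genes were positive, beside 61.8% of all genes. The direction of small ratios, such as 0.05 for Psmb1, 0.07 for Psmg4 and 0.08 for Psmd10, depends on how the columns are scaled. Psmb5 read 1.53 RPKM in Eed_null and 1.08 RPKM in CJ7_WT, Psmb6 7.49 and 5.99 RPKM, and Psmb10 0.374 and 0.387 RPKM, while Psmb8 and Psmb9 had 0 to 4 reads in a column.

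**Figure D4:**
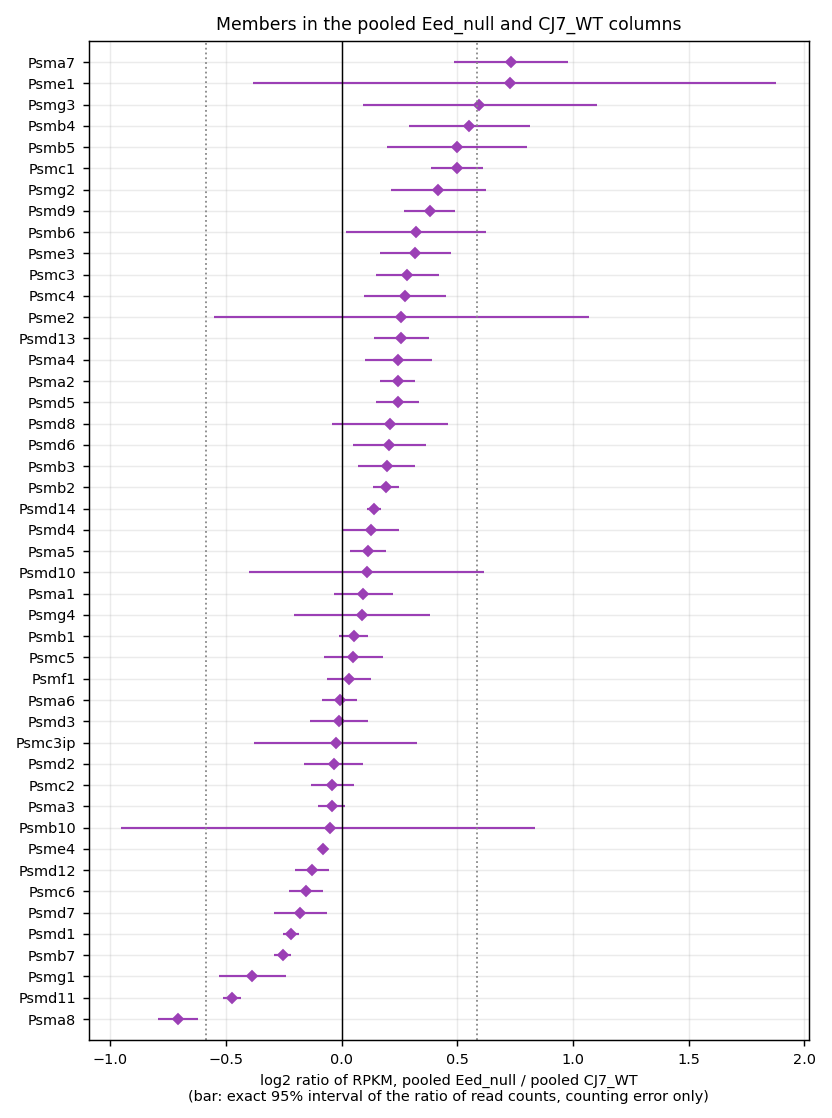
Log2 ratio of RPKM between the pooled Eed_null and CJ7_WT columns for 46 genes, sorted, with exact 95% intervals of the ratio of reads and dotted lines at 1.5-fold either way. The 0.1 RPKM added for the ratios in the text is left out here, so Psme1 and Psmg3 also lie past the upper line. Psma7 lies at the top and Psma8 at the bottom, and genes with few reads, such as Psme1 and Psmb10, have the widest bars.

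Side by side, with no test, EloA_WT and the pooled CJ7_WT column differed most in short genes. The EloA_WT mean of Psmb6 was 45.1 RPKM against 5.99 RPKM in CJ7_WT, a ratio of 7.53, and Psmb4 was at 19.6 RPKM against 3.12 RPKM. Over the 9 tested proteasome genes with under 3 kb of intron the median ratio was 1.94, beside 1.75 for all genes of that length. It was 1.59 over 20 genes of 3 to 15 kb, beside 1.36, and 1.23 over 17 longer genes, beside 1.00. Both Psmb6 and Psmb4 lay well above their length class in this ratio. At the other end, Psmd3, a lid gene, held 1.80 RPKM in EloA_WT and 2.90 RPKM in CJ7_WT, a ratio of 0.619.

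**Figure D5:**
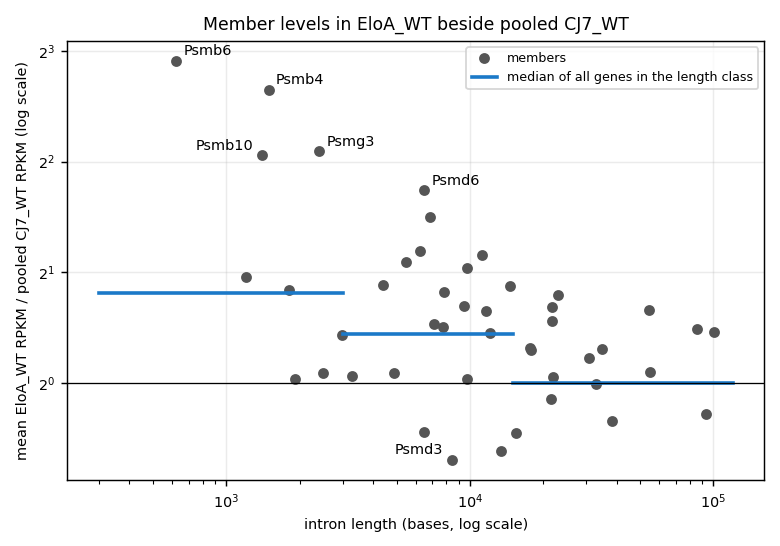
Ratio of the mean EloA_WT level to the pooled CJ7_WT level (log scale) against intron length (log scale) for the tested proteasome genes, with blue lines at the median of all genes in each of 3 length classes. Psmb6 at 7.53 is the highest point, and Psmd3 at 0.619 the lowest.

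Genes around the proteasome were read from 4 lists. They hold proteasome partners outside the name rule (11 tested), regulators of proteasome genes (11), ubiquitin supply and shuttles (13) and antigen processing (6 tested of 9). In EloA_K754M limma called 0 of them, beside 0.218% of all genes. In EloA_K754R it called 1 partner higher, 2 regulators lower, 1 ubiquitin gene lower and 0 antigen processing genes, beside 2.79% of all genes lower and 0.686% higher. Nfe2l1, the gene of NRF1, read 5.97 and 7.39 RPKM in EloA_WT, 2.83 and 3.36 RPKM in EloA_K754R and 3.13 and 3.43 RPKM in EloA_K754M. It fell by 1.08 in EloA_K754R (SE 0.157, adjusted p = 0.0373) and had −0.998 in EloA_K754M (adjusted p = 0.0882). Keap1, the adaptor that marks NRF2 for degradation, fell by 0.70 (SE 0.121, adjusted p = 0.0453), and Ubb, a polyubiquitin gene, fell by 0.91 (adjusted p = 0.0364). AI314180, the mouse gene of the proteasome adaptor ECM29, rose by 0.67 (SE 0.106, adjusted p = 0.0421), from 2.11 and 2.05 RPKM to 3.42 and 3.31 RPKM, while EloA_K754M held 1.97 and 1.95 RPKM. The pooled CJ7_WT column, not part of the test, read 3.65 RPKM for Nfe2l1, 1.17 for Keap1, 9.58 for Ubb and 2.34 for AI314180. For Nfe2l1 that wild-type line thus lay nearer to the mutants than to EloA_WT.

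Nfe2l1 and Ubb lie on chromosome 11, where the median of all tested genes was −0.565 in EloA_K754R against EloA_WT. All 4 calls were lost without the filter on low values, with adjusted p of 0.0543 to 0.0682, and in every fit without 1 library, with adjusted p of 0.0903 to 0.215. Equal library medians and quantile normalization each lost Keap1, Ubb and Nfe2l1, with adjusted p of 0.0505 to 0.0812, while AI314180 remained called. Nfe2l2, the gene of NRF2, had −0.11 in EloA_K754R (adjusted p = 0.682), which turned to 0.0871 at equal library medians. Pomp, the maturation factor of the core, had −0.0472 (adjusted p = 0.883) and turned to 0.145 in the same way. Adrm1, a ubiquitin receptor of the base, had 0.64 in EloA_K754M (adjusted p = 0.337) and −0.21 in EloA_K754R (adjusted p = 0.665).

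Promoter sequence was described because these genes are known to share control elements. RefSeq windows from 250 bases before to 50 bases after the start (GRCm38.p6) were found for 40 of the 48 genes and searched on both strands for 3 motifs, which do not contain one another. The core of the antioxidant response element, TGACNNNGC, to which NRF1 and NRF2 bind, stood in 6 of 40 (15%), beside 14% of all 27025 genes with a window. The NF-Y box CCAAT stood in 14 of 40 (35%), beside 41.1%. CCGGAAG, the motif of ETS factors, stood in 15 of 40 (37.5%), beside 9.93%. A match describes letters only, and binding was not measured here.

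Stretches around a match are shown on the gene's strand, with the motif or its reverse complement in capitals, for the 2 catalytic genes with a TGACNNNGC match, for Psmc6, which lay higher in EloA_K754R, and for 3 chromosome 11 genes with CCGGAAG. They lie at chr14:54618024-54618052 (minus strand) for Psmb5, chr11:70525338-70525366 (plus) for Psmb6, chr14:45329587-45329615 (plus) for Psmc6, chr11:107479501-107479527 (plus) for Psmd12, chr11:101316096-101316122 (plus) for Psme3 and chr11:80428594-80428620 (plus) for Psmd11.
Psmb5: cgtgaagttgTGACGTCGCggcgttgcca
Psmb6: ctaaagagagTGACGGAGCgctttacgac
Psmc6: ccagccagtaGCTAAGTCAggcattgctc
Psmd12: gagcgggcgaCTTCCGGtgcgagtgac
Psme3: ggcacaaggcCCGGAAGctccgacagc
Psmd11: gagggcgggtCTTCCGGgtgtgtgttt
The match began 47 bases before the start in Psmb5 and 9 bases before it in Psmb6. Of the 6 genes with the TGACNNNGC core, Psmb5 had log2 changes of −0.73 and −0.37 in EloA_K754M and EloA_K754R, Psmb6 of −0.25 and −1.23, Psmd12 of −0.65 and −0.57, Psme4 of −0.54 and −0.0976, Psmd9 of −0.16 and 0.0654 and Psmc6 of −0.0309 and 0.37. None of these passed limma's threshold.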

How the data were processed

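The authors deposited 1 table of intronic RPKM with 6 single-library columns and 2 columns that pool the replicates of CJ7_WT and Eed_null. Alignment was with BWA to the mouse build mm9, per the submitters' processing notes; counter, annotation, strand handling and the depth used: not given in the sources used here. Whole read steps were recovered for 20817 of 20817 genes with 6 or more columns above 0 (tolerance 0.01 read, 0.06 at high values). In 7780 genes 1 step is worth 0.5 of a read, judged from GENCODE intron lengths. Of the recovered intron lengths that could be compared, 84% lay within 10% of the GENCODE length, so reads of single genes are estimates.

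Log2 of RPKM plus 0.1 of the 6 libraries was fitted with limma 3.58.1 (R 4.3.3, eBayes with trend, 3 residual and 2.76 prior degrees of freedom), two-sided, for the 15161 genes whose mean reached 0.1 RPKM. P-values were adjusted by Benjamini-Hochberg over all genes, threshold 0.05. A fold change on this scale understates low genes. The fit was checked on simulated data. "Rose" and "fell" mean an adjusted p under the threshold.

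For the pooled columns, log2 ratios of RPKM plus 0.1 were taken for 14890 genes with no test. Named are, per comparison, called genes, the 4 largest changes each way among genes of at least 0.5 RPKM in the higher group, the catalytic and inducible pairs and Nfe2l1, Nfe2l2, Pomp, Adrm1. Genes shown for their position, level or promoter were chosen after their values were seen. The members, lists and tests were chosen with earlier results of these data known. Promoter sequences are RefSeq's. Alternatives were pseudocounts, filters, scalings, a replicate block, voom on recovered reads, intron length and leaving out libraries.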

Additional observations from a re-analysis of the deposited data

How the results depend on the processing

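With 2 libraries per group, 3 residual degrees of freedom and no recorded pairing, even large changes of single genes could go uncalled. Psmb6 in EloA_K754R, at −1.23 without overlap, had a limma adjusted p of 0.107. Same-numbered libraries deviated together with correlations of 0.152 to 0.197 over genes, which the labels do not tie to a shared day. With the replicate number as a block, limma called 1 proteasome gene in EloA_K754M (Psmb3, adjusted p = 0.0447), beside 41 higher and 186 lower calls over the whole table, and 5 in EloA_K754R (Psmb3 0.0262, Psmb6 0.0407, Psmd12 0.0330, Psmd8 0.0372 and Psmg3 0.0488, all lower), where all genes called in EloA_K754R went from 104 higher and 423 lower to 395 and 1382. Voom on the recovered reads called 2 in EloA_K754R (Psmb3 0.0480 and Psmg4 0.0397) and 421 higher and 898 lower among all genes, and lost Ubb there (0.120). Nfe2l1 in EloA_K754M gained a call with the block (0.0447) and with voom (0.0371). In EloA_K754R, equal library medians moved the split over all genes to 164 higher and 160 lower.

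The median over the proteasome genes in EloA_K754R was −0.0873 at equal library medians, −0.1127 after quantile normalization and −0.0940 relative to genes of like intron length. Between the mutants it reversed to −0.0379, −0.0552 and −0.1154 in the same order. In Eed_null it reversed to −0.0404 at equal column medians and −0.0298 relative to genes of like length, and genes past 1.5-fold numbered 1 with a pseudocount of 0.5 RPKM, 4 with 0.01 RPKM and 1 relative to genes of like length. At equal medians and after quantile normalization, Nfe2l2 in EloA_K754R reversed to 0.0871 and 0.0520, Pomp to 0.1455 and 0.1459, and Psmb7 between the mutants to −0.0142 and −0.0242. The cause was not tested.

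Leaving out 1 library at a time, limma called 0 proteasome genes in each of the 3 comparisons, but few genes in all: 1 to 43 higher and 1 to 9 lower in EloA_K754M, 0 to 3 and 0 to 8 in EloA_K754R, and 1 to 53 and 1 to 11 between the mutants. The median ran from −0.3604 to −0.0492 in EloA_K754M, from −0.3900 to −0.1356 in EloA_K754R and from −0.1252 to 0.1176 between the mutants. In EloA_K754M, Psma7 ran from −0.4669 to 0.6486, Psmb10 from −0.5107 to 0.2239, Psmb6 from −0.7545 to 0.2510, Psmb7 from −0.0058 to 0.2432 and Psmc2 from −0.3279 to 0.4465. In EloA_K754R, Nfe2l2 ran from −0.2270 to 0.0159, Pomp from −0.1646 to 0.0703 and Psmb7 from −0.0575 to 0.1915. Between the mutants, Nfe2l1 ran from −0.0361 to 0.2025, Nfe2l2 from −0.2247 to 0.0181 and Psmb7 from −0.0273 to 0.1307. A group left with 1 library is assumed to vary like the others. Over all results and alternatives, 694 values were counted as unchanged, 29 reversed, 35 lost and 7 gained a call, and 15 moved. For single genes, unchanged means the same direction and side of the threshold. A median could shift and still count as unchanged, as in EloA_K754M from −0.1552 to −0.0284 at equal library medians. Some values could not change. Leaving out an EloA_K754R library does not alter the log2 changes of EloA_K754M against EloA_WT. The tally is therefore not a measure of robustness.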
